A study of Homo sapiens with 54 samples.

Results

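PEO14 is an established human ovarian cancer cell line, the platinum-sensitive partner of PEO23 in a study of 3 pairs of high-grade serous ovarian carcinoma lines. Described here is its response to 8 h in 80 µM carboplatin. The 6 libraries concerned, of 54 in the series, were chosen by their labels alone: 3 untreated PEO14 cultures and 3 PEO14 cultures treated for 8 h. Both groups were the same unmodified line in the same serum-containing medium, and the series text describes 3 repeats on different days. Untreated cultures were labelled as passage 20, 20 and 20 to 22, and treated cultures as passage 21, 23 to 25 and 23, so passage and treatment cannot be told apart. The series text also describes the control as a vehicle culture harvested at 24 h, while the labels call it untreated, the name used here. Total RNA was sequenced, and the deposited values are TPM, in which each gene's reads are divided by its length and every library sums to the same total.

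Carboplatin binds guanines in DNA and links neighbouring or opposite bases. Such adducts block DNA and RNA polymerases, are removed by nucleotide excision repair, homologous recombination and the Fanconi pathway, and activate the kinases ATR and ATM. High-grade serous carcinoma arises from Müllerian epithelium and is treated first with platinum drugs.

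Ribosomal protein mRNAs had the highest median change of the gene lists used here. Many of these genes, and of those for translation factors, begin their transcripts with a terminal oligopyrimidine, or TOP, a C at the first base followed by other C or T bases, through which LARP1 and mTOR signalling control their translation. Shown first are therefore the start sites of genes described below, 15 bases before and 15 after the first transcribed base, with the run of C and T from the start in capitals. Sequences and coordinates are RefSeq's on build GRCh38.p14, matched by symbol, whereas the deposited values were made on hg19. Where RefSeq lists several starts, the first with a TOP is shown.
RPS13: ttccactctcgctctCCTTTCgttgcctga
RPS3A: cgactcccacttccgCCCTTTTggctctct
RPL37A: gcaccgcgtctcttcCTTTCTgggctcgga
RPS18: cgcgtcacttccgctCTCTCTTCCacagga
RPS24: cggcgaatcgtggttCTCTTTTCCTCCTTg
EEF1B2: ccggtctcttcgggtCCTTTTTCCTCTCTT
EEF1A1: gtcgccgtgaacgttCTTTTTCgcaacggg
BTF3: tgtcacttccggcctCCCTTTagctgccat
SNHG5: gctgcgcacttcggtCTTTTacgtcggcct
ZFAS1: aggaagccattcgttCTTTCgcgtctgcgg
TMSB10: gggcgccgctcttttgtttcttgctgcagc
KMT2D: gggcgggatccctccgccgctccgctccaa
The first 8 encode ribosomal proteins and translation factors, and SNHG5 and ZFAS1 are noncoding hosts of small nucleolar RNAs. Their windows lie at chr11:17077653-17077682, minus strand for RPS13, chr4:151099613-151099642, plus strand for RPS3A, chr6:73521018-73521047, minus strand for EEF1A1 and chr6:85678719-85678748, minus strand for SNHG5. TMSB10 and KMT2D begin with G and have no TOP by this definition. TMSB10, an actin-binding peptide, rose and KMT2D, a histone methyltransferase, fell.

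A start with a run of at least 5 C or T bases that opens with C was found in 863 of the 12420 tested protein-coding genes with a RefSeq promoter, or 6.95%. Of 81 ribosomal protein and translation factor genes with a promoter, 61 held it, and 53 of these 61 were called higher, with a median log2 change of 1.37. Of the 20 without it, 18 were called higher, with a median of 1.64. Among all other genes, the 802 with such a start had a median of 0.00, 93 called higher and 138 lower, against a median of -0.10 for the 11537 without.

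The 6 libraries listed many genes each, 16426 to 17133 untreated and 14344 to 15492 at 8 h. Their make-up differed by group. Ribosomal protein mRNAs took 9.71%, 10.4% and 12.9% of TPM untreated and 22.3%, 22.2% and 19.3% at 8 h. Between 28 and 44 olfactory receptor genes, silent in most tissues, were listed above 0 untreated against 7 to 12 at 8 h. Since every library sums to the same total, its TPM were divided by the typical ratio of 8287 genes to their mean, with factors of 1.43 to 1.53 untreated and 0.924 to 1.10 at 8 h. TPM keeps no depth, so no counting error can be given. Among the treated libraries, replicate 3 listed the fewest genes and had the lowest ribosomal protein share.

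PEO14 had the RNA of an epithelial ovarian carcinoma line. The 12 ovarian carcinoma markers summed to 5151, 5237 and 5616 rescaled TPM untreated and 9084 to 12379 at 8 h, mostly keratins 8, 18 and 7, with PAX8, SOX17 and WFDC2 present. WT1 was at 1.56 or below, MSLN at 3.28 or below, FOLR1 at 3.06 or below and MUC16 at 5.51 or below in every library. The 11 fibroblast markers summed to 40.3, 50.8 and 73.2 untreated and 15.4, 15.6 and 30.9 at 8 h, of which COL1A1 gave most, and COL3A1, DCN, FAP, POSTN and DPT were at 0 in all 6. Among 12 leukocyte markers CD3D, CD3E, CD2, MS4A1 and TYROBP were at 0 in all 6 libraries, and their sums were 10.5 to 18.9 and 6.38 to 8.99. The 9 endothelial and 7 mesothelial markers summed to 12.1 to 20.2 and 18.4 to 25.5 untreated, and to 10.0 to 12.5 and 8.22 to 18.0 at 8 h.

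Changes are differences between group means of log2(rescaled TPM + 1), so the changes of weak genes come out too small, and are given ± SE with n = 3 libraries per group. They come from 1 limma model of the 42 libraries of the series that listed at least 12000 genes, so the spread of each gene is shared by 17 groups. Of 18013 genes tested, 1599 (8.88%) were called higher at 8 h and 3805 (21.1%) lower at a Benjamini-Hochberg adjusted p under 0.05, together 5404 (30.0%). The 3 treated and 3 untreated values did not overlap in 8402 genes (46.6%), including 5176 of the 5404. The balance depended on the scale: the median change of all genes was -0.16, but -0.24 with upper-quartile scaling and -0.60 without rescaling, where 280 genes were called higher and 5268 lower. A rise below is thus relative to the typical gene, and in bulk RNA fewer cells and less RNA per cell cannot be told apart.

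**Figure D1:**
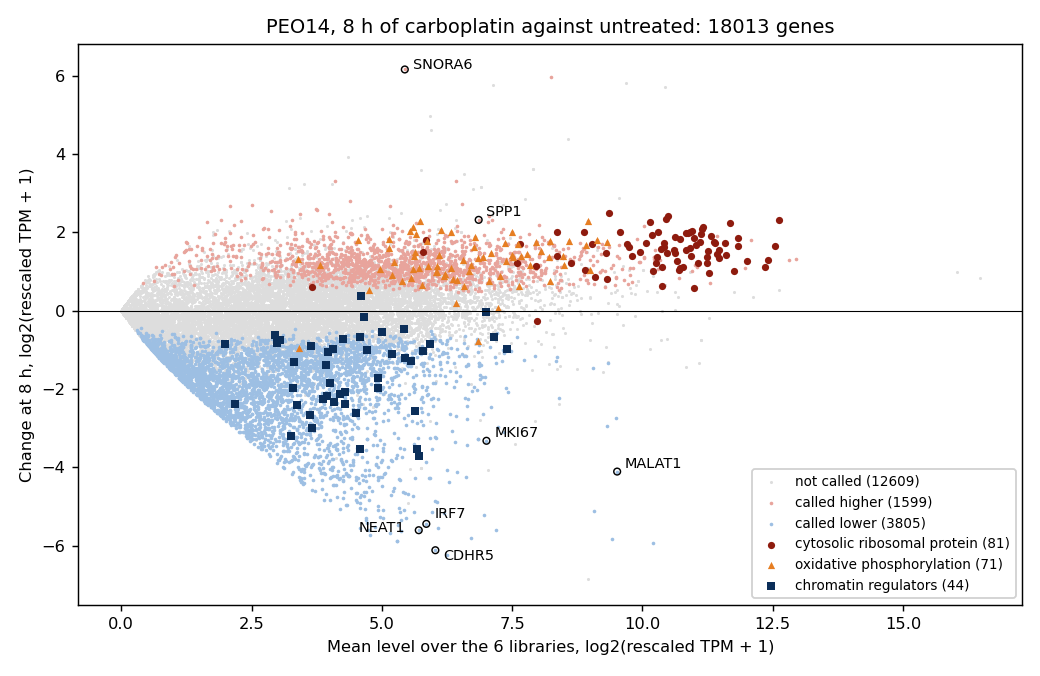
Each point is 1 of the 18013 genes, with its mean level over the 6 libraries on the horizontal axis and its change at 8 h on the vertical axis, both on the log2(rescaled TPM + 1) scale; colours mark calls and symbols mark 3 gene groups. Ribosomal protein genes (median 1.54) and oxidative phosphorylation genes (median 1.32) lie above 0 at high levels, whereas chromatin regulators (median -1.30) lie below it at middle levels.

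Ribosomal protein mRNAs rose almost as a whole. Of 81 tested, 72 were called higher and none lower, against 8.88% of all genes higher. Treated values lay above every untreated value in 78, whereas groups did not overlap, in either direction, in 46.6% of all genes. RPS3A, whose TOP start is shown above, stood at 446, 381 and 455 rescaled TPM untreated and at 3448, 2664 and 1275 at 8 h (2.41 ± 0.50, adjusted p = 4.57e-04). RPS13, the largest change of the group, stood at 165, 159 and 212 rescaled TPM untreated and at 1688, 1167 and 516 at 8 h (2.498 ± 0.70, adjusted p = 0.00750). RPL37A, among the most abundant RNAs of these cells, stood at 1528, 1913 and 3091 rescaled TPM untreated and at 9977, 11801 and 9287 at 8 h (2.31 ± 0.44, adjusted p = 1.82e-04). In all 3 genes the treated values lay above the untreated ones, and replicate 3 was the lowest treated library. RPS18 (3130.4, 2589 and 2699.9 untreated and 11374, 10131 and 5734 at 8 h) and RPS24 (2573, 3049 and 3858 untreated and 8676, 8453 and 6048 at 8 h) showed the same order.

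Both subunits took part, with 27 of 32 small-subunit genes higher (median 1.71) and 45 of 49 large-subunit genes (median 1.496). RPS16 was the only member below 0, at -0.26, and did not pass. Without rescaling 60 of the 81 stayed higher, with a median of 0.94, and without 8 h replicate 1 the number was 58. With all 54 libraries in the model, which adds the 12 that listed fewer genes, none of the 81 passed. Many ribosomal protein genes have near-identical processed copies, such as RPL13AP5 (4393, 3701 and 4405 untreated and 10246, 10361 and 9792 at 8 h; 1.29), and how the counting split their reads is not given in the sources used here.

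Translation factors followed, with 19 of 23 higher (82.6% against 8.88% of all genes) and a median of 1.08. EEF1A1, the elongation factor that brings tRNA to the ribosome, went from 1087, 1062 and 1255 to 5899, 4099 and 3152 (1.905 ± 0.37, adjusted p = 2.44e-04). Its exchange factor EEF1B2 went from 285, 324 and 562 to 2157, 1803 and 1174 (2.15 ± 0.42, adjusted p = 2.59e-04). BTF3, a part of the complex that meets nascent chains, rose by 1.38. The exception was PABPC1, the poly(A)-binding protein, which fell from 665, 916 and 767 to 257, 322 and 261 (-1.48 ± 0.26, adjusted p = 8.12e-05) with no overlap. Without rescaling 5 of the 23 were higher and PABPC1 lower. TMSB10, which is no translation gene, was the most abundant protein-coding RNA called higher, with 4577, 4109.5 and 4937 untreated and 12593, 10687 and 10716 at 8 h (1.32 ± 0.43, adjusted p = 0.0191).

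Noncoding hosts of small nucleolar RNAs split. SNHG5 rose (109, 70.1 and 74.1 untreated and 599, 526 and 173 at 8 h; 2.182 ± 0.48, adjusted p = 8.21e-04). ZFAS1 (251, 247 and 338 untreated and 1233, 1131 and 413 at 8 h; 1.59 ± 0.45, adjusted p = 0.00718) and GAS5 (1.23) rose as well. Of the 20 hosts 5 fell (25.0% against 21.1% of all genes), led by SNHG4 (21.5, 18.2 and 19.6 untreated and 2.94, 5.55 and 2.181 at 8 h; -2.25 ± 0.75, adjusted p = 0.0229). TAF1D, a protein-coding host, was another (128, 111 and 108 untreated and 31.96, 40.5 and 23.02 at 8 h; -1.86 ± 0.31, adjusted p = 3.11e-05). The hosts' count rested on single libraries, with 1 lower without 8 h replicate 3, 2 without 8 h replicate 1 or untreated replicate 1, and 3 without any other PEO14 library. Among 14 small structural RNAs only SCARNA2 passed (245, 219 and 289 untreated and 566, 789 and 542 at 8 h; 1.32 ± 0.39, adjusted p = 0.0106). The small nucleolar RNA SNORA6 was listed at 0 in all 3 untreated libraries and at 89.9, 137 and 27.9 at 8 h, so no fold is given.

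**Figure D2:**
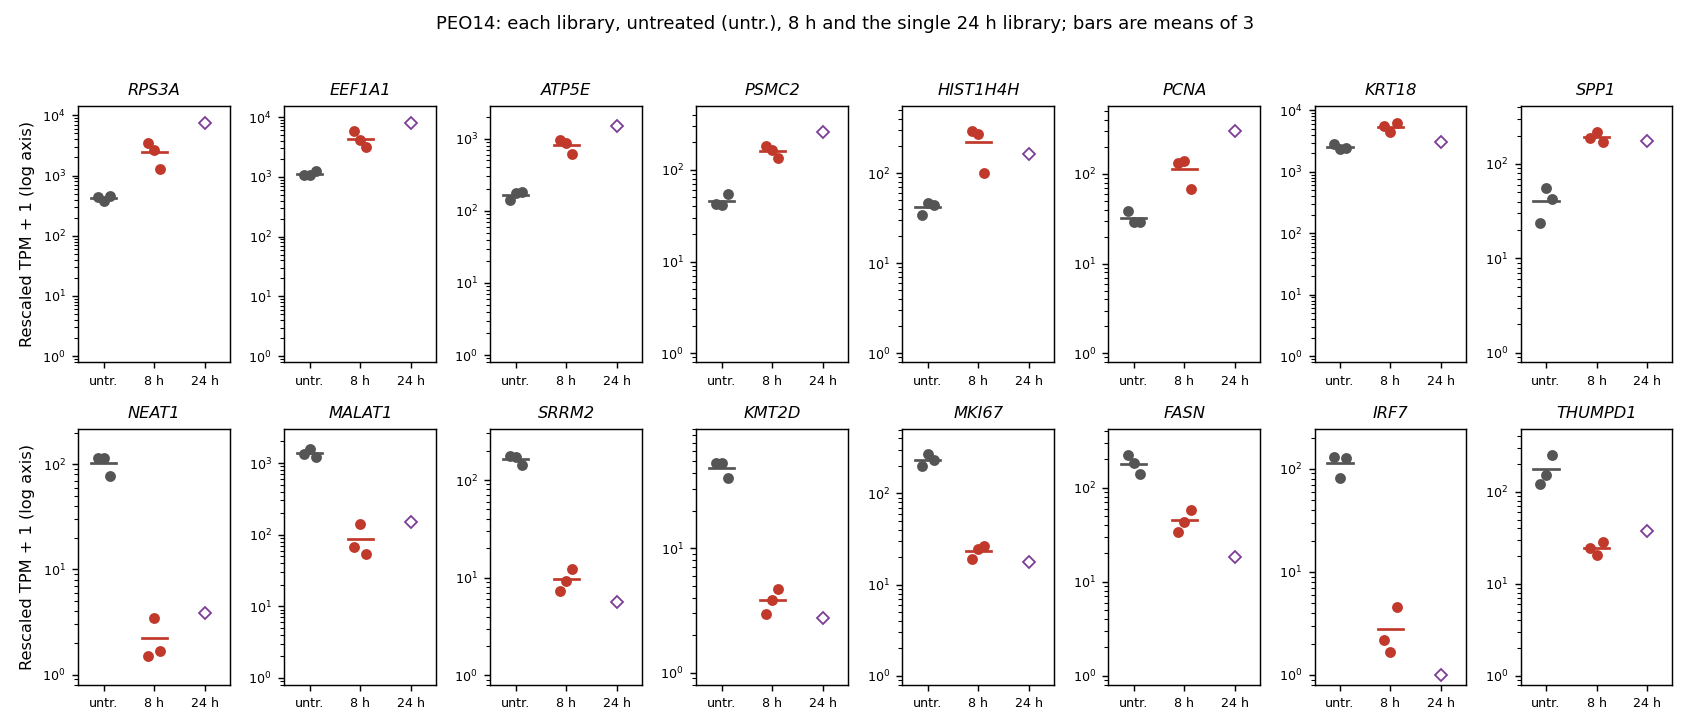
Values of 16 genes in every PEO14 library, as rescaled TPM + 1 on a log axis: 3 untreated, 3 at 8 h and the single 24 h library kept, with bars at group means. For each of the 16, the 8 h values do not overlap the untreated values; NEAT1, for example, fell from 77.0 to 114 untreated to 0.498 to 2.47.

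Nuclear-encoded genes of mitochondria rose as well. Of 71 oxidative phosphorylation genes 48 were higher (67.6% against 8.88% of all genes), none lower, with a median of 1.32. Every complex had some: 19 of 33 in complex I, 2 of 4 in complex II, 6 of 9 in complex III, 8 of 10 in complex IV and 13 of 15 in ATP synthase. ATP5E, a small ATP synthase subunit, stood at 141, 177 and 182 rescaled TPM untreated and at 955, 885 and 618 at 8 h (2.28 ± 0.56, adjusted p = 0.00242). COX7A2 of cytochrome oxidase stood at 13.6, 16.3 and 16.02 rescaled TPM untreated and at 131, 97.5 and 37.8 at 8 h (2.29 ± 0.68, adjusted p = 0.0112). ATP5L (2.13) and the complex I associated NDUFA4 (2.05) rose with them. Treated values exceeded all untreated ones in 63 of the 71, whereas groups did not overlap, in either direction, in 46.6% of all genes. Mitochondrial ribosomal proteins gave 35 of 77 higher (45.5% against 8.88% of all genes) and none lower, with a median of 0.91. MRPL51, of the large mitochondrial subunit, rose (71.0, 93.7 and 89.6 untreated and 361, 327 and 258 at 8 h; 1.88 ± 0.33, adjusted p = 6.13e-05). MRPL50, of the same subunit, rose too (7.21, 7.94 and 6.59 untreated and 45.1, 35.8 and 19.3 at 8 h; 1.98 ± 0.39, adjusted p = 2.33e-04). Without rescaling, 20 of 71 and 9 of 77 were higher and 2 in each group lower. Without 8 h replicate 1 the counts were 29 and 20, without untreated replicate 1 the second was 23, and with all 54 libraries 0 and 0.

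Proteasome genes rose in 22 of 31 cases (71.0% against 8.88% of all genes) and fell in none, with a median of 1.10. In 29 the groups did not overlap, against 46.6% of all genes. The catalytic core had the highest medians, with 6 of 7 alpha ring genes higher (median 1.55) and 5 of 7 beta ring genes (median 1.28). The ATPases of the cap gave 5 of 6 (median 1.01) and its other subunits 6 of 11 (median 0.89). PSMA5, an alpha subunit, went from 15.3, 15.6 and 17.5 to 81.0, 65.6 and 40.3 (1.83 ± 0.44, adjusted p = 0.00186). PSMC2, an ATPase of the cap, went from 41.9, 40.2 and 53.03 to 181, 164 and 134 (1.80 ± 0.38, adjusted p = 5.68e-04). Without rescaling 4 of 31 passed, all higher.

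Other protein-coding genes with the largest rises were of varied function. LSM2, part of the ring that binds U6 and decaying mRNA, stood at 8.54, 6.27 and 11.2 rescaled TPM untreated and at 77.5, 62.4 and 42.4 at 8 h (2.67 ± 0.47, adjusted p = 6.22e-05). MYEOV2, a COP9 signalosome subunit, stood at 67.95, 25.2 and 36.1 rescaled TPM untreated and at 252, 260.1 and 152 at 8 h (2.41 ± 0.49, adjusted p = 4.17e-04). SEC61G, a subunit of the endoplasmic reticulum translocon, stood at 14.5, 20.6 and 34.1 rescaled TPM untreated and at 218, 191 and 77.1 at 8 h (2.71 ± 0.82, adjusted p = 0.0120). CMC1 (17.1, 0 and 5.02 untreated and 37.8, 36.0 and 24.3 at 8 h), PTS (0.887, 5.85 and 5.21 untreated and 32.9, 33.4 and 10.7 at 8 h) and C14orf2 (38.6, 44.6 and 47.7 untreated and 299.8, 269 and 129 at 8 h) also rose without overlap. MYCBP, a MYC-binding protein, had the largest fitted rise of a protein-coding gene, 3.32 ± 1.10, adjusted p = 0.0216. Its values were 0, 0 and 18.1 untreated and 32.1, 28.0 and 18.8 at 8 h, so 2 untreated libraries were at 0 and the other lay just under the lowest treated value. That call was lost without rescaling (adjusted p = 0.0503), with all 54 libraries, and without 8 h replicate 1 or 2 or untreated replicate 1 or 2. SPP1, which encodes the secreted matrix protein osteopontin, rose from 22.7, 54.3 and 41.6 to 187, 215 and 169 (2.32 ± 0.27, adjusted p = 1.55e-07). The placental galectin LGALS14 rose from 0.748, 0 and 3.86 to 12.5, 11.2 and 9.39 (2.55 ± 0.36, adjusted p = 3.71e-06).

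Replication-dependent histone genes rose in 20 of 69 cases (28.99% against 8.88% of all genes) and fell in 2 (2.90% against 21.1%). Their median was 1.00. Without rescaling 14 rose and 4 fell, with a median of 0.42. HIST1H4H stood at 33.6, 46.0 and 42.9 rescaled TPM untreated and at 291, 274 and 98.8 at 8 h (2.27 ± 0.44, adjusted p = 2.03e-04). HIST1H4F stood at 2.86, 4.70 and 0 rescaled TPM untreated and at 31.7, 9.93 and 9.63 at 8 h. HIST1H4D was at 115, 85.0 and 139 rescaled TPM untreated and at 502, 446 and 314 at 8 h. Of the types, H4 (6 of 14), H2B (8 of 19) and H2A (5 of 16) gave most of the calls, H3 gave 1 of 14 and H1 none of 6. The testis forms HIST3H3 (23.8, 32.6 and 16.3 untreated and 0, 0 and 0 at 8 h; -4.61 ± 0.72, adjusted p = 1.33e-05) and HIST1H1T (3.57, 5.89 and 2.80 untreated and 0.736, 0 and 0 at 8 h) fell. These RNAs lack poly(A) tails, are made in S phase, and have near-identical copies, so the split between copies is uncertain. The count was 12 higher without 8 h replicate 1, 13 without 8 h replicate 2, 11 without untreated replicate 2 and 45 of 66 tested in a model of the 6 libraries alone.

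Genes of the G1/S transition and of replication rose in 13 of 51 cases (25.5% against 8.88% of all genes) and fell in 2 (3.92% against 21.1%). PCNA, the sliding clamp of DNA polymerases, stood at 37.97, 27.9 and 28.3 rescaled TPM untreated and at 129.6, 139.8 and 66.5 at 8 h (1.74 ± 0.34, adjusted p = 2.79e-04). CDC6, which loads the MCM helicase, stood at 33.6, 32.7 and 39.5 rescaled TPM untreated and at 98.4, 89.4 and 77.9 at 8 h (1.30 ± 0.30, adjusted p = 0.00118). Their median was 0.51 but -0.06 without rescaling, where 1 was higher and 2 lower. TYMS, thymidylate synthase, fell from 29.2, 26.97 and 22.7 to 8.89, 7.39 and 6.83 (-1.65 ± 0.31, adjusted p = 1.35e-04). POLE, the leading-strand polymerase, went from 43.4, 43.3 and 32.8 to 8.97, 10.5 and 13.7 (-1.77 ± 0.26, adjusted p = 7.25e-06). Neither overlapped. CCNE1 (22.6, 18.3 and 26.5 untreated and 37.8, 49.8 and 35.6 at 8 h; 0.84 ± 0.47, adjusted p = 0.182) did not pass.

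Mitotic genes gave 2 higher and 7 lower of 51, shares of 3.92% and 13.7% that were below those of all genes, 8.88% and 21.1%. MKI67, which coats mitotic chromosomes and is used as a marker of dividing cells, fell from 198, 267 and 233 to 18.2, 23.6 and 25.3 (-3.33 ± 0.30, adjusted p = 2.00e-09). The kinetochore protein CENPF fell less (134, 151 and 145 untreated and 56.1, 52.6 and 57.4 at 8 h; -1.36 ± 0.28, adjusted p = 5.44e-04). So did the kinetochore motor CENPE (31.2, 31.7 and 26.03 untreated and 12.2, 9.79 and 8.82 at 8 h; -1.45 ± 0.43, adjusted p = 0.0116) and the phosphatase CDC25B (29.4, 28.0 and 22.8 untreated and 10.6, 10.2 and 10.3 at 8 h; -1.28 ± 0.34, adjusted p = 0.00495). CDK1 (1.20) and BUB3 (1.06) rose, and the list's median was -0.03.

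**Figure D3:**
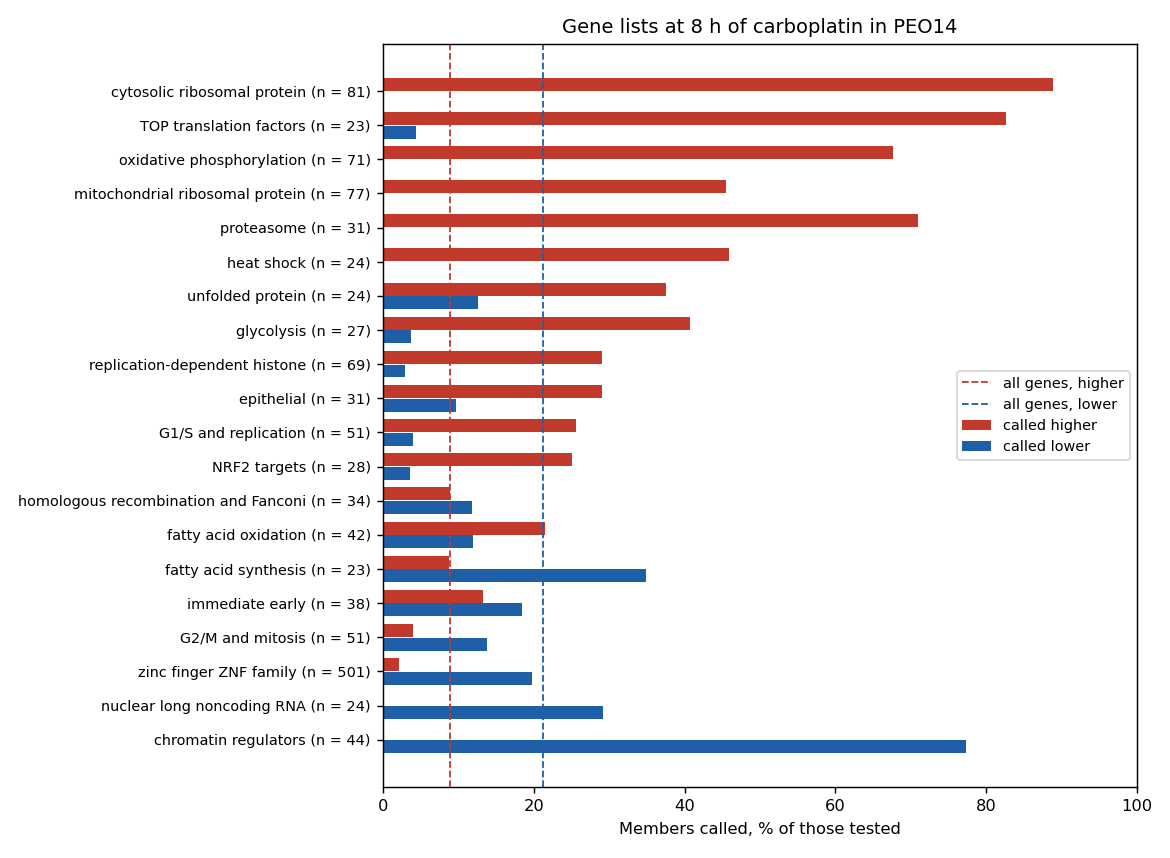
Share of tested members called higher (red) and lower (blue) at 8 h for 20 gene lists; n is the number tested and dashed lines give the shares over all genes, 8.88% higher and 21.1% lower. Ribosomal, proteasome and oxidative phosphorylation lists have no member lower, and chromatin regulators have none higher.

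Some nuclear long noncoding RNAs were among the deepest falls. NEAT1, the scaffold of paraspeckles, stood at 114, 113 and 77.0 rescaled TPM untreated and at 0.498, 2.47 and 0.693 at 8 h (-5.61 ± 0.43, adjusted p = 8.36e-11). MALAT1, of nuclear speckles and among the most abundant RNAs that fell, stood at 1326, 1571 and 1228 rescaled TPM untreated and at 65.7, 138 and 52.5 at 8 h (-4.11 ± 0.37, adjusted p = 1.26e-09). KCNQ1OT1, which silences the imprinted KCNQ1 cluster, went from 36.3, 39.6 and 34.1 to 0.682, 2.13 and 0.858 (-4.14 ± 0.28, adjusted p = 7.24e-12). Imprinted MEG3 went from 94.3, 53.6 and 37.7 to 0.985, 3.86 and 2.76 (-4.15 ± 0.29, adjusted p = 1.24e-11). In each the highest treated value was far below the lowest untreated one. Of all 24 such RNAs 7 fell (29.2% against 21.1% of all genes), none rose, and the median was -0.67.

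The falls extended to long noncoding RNA genes and transcribed pseudogenes. Of 1268 long noncoding RNA genes 409 were lower (32.3% against 21.1% of all genes) and 10 higher (0.79% against 8.88%), with a median of -0.60. Of 521 transcribed pseudogenes 187 were lower (35.9%) and 7 higher (1.34%), with a median of -0.82. Protein-coding genes gave 19.6% lower and 10.1% higher. Of 129 small nucleolar RNA genes none was lower and 2 were higher. LOC441081 was among the deepest (168, 157 and 289.8 untreated and 1.48, 3.33 and 3.17 at 8 h; -5.80 ± 0.40, adjusted p = 7.24e-12). So were LOC100190986 (66.7, 65.8 and 73.6 untreated and 0.389, 0.831 and 0 at 8 h), C3orf65 (64.0, 70.1 and 107 untreated and 0.487, 0.690 and 0.675 at 8 h) and LOC100303749 (33.3, 38.5 and 84.8 untreated and 0, 0 and 0 at 8 h). The short RNA gene MIR3648 fell from 4236, 1436 and 1229.8 to 6.51, 26.96 and 152 (-5.94 ± 1.41, adjusted p = 0.00176), with a wide spread within each group. Abundant falls also included LOC100129940 (1156, 995 and 1863 untreated and 11.7, 30.6 and 28.3 at 8 h; -5.83 ± 0.67, adjusted p = 1.27e-07). LOC100128494 was another (858, 744 and 1072 untreated and 203, 289.9 and 707 at 8 h; -1.34 ± 0.50, adjusted p = 0.0402).

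Chromatin regulators had a larger share of members lower than the other gene lists used here. Of 44 tested, 34 were lower and none higher against 21.1% of all genes lower, and the median was -1.30. In 41 the groups did not overlap, against 46.6% of all genes. KMT2D, whose start is shown above, stood at 46.9, 47.4 and 35.3 rescaled TPM untreated and at 1.96, 2.82 and 3.72 at 8 h (-3.54 ± 0.35, adjusted p = 8.46e-09). The methyltransferase subunit SETD1B fell as well (18.1, 19.2 and 11.3 untreated and 0.563, 1.02 and 0.931 at 8 h; -3.20 ± 0.41, adjusted p = 7.85e-07). ZFHX3, a large homeodomain factor, changed by -2.99 from 21.4, 22.9 and 20.2 to 1.33, 1.93 and 2.29. Only SMARCA2 was above 0, at 0.37. The count was 28 to 32 when 1 of the 6 libraries was left out, 37 without rescaling and 11 with all 54 libraries.

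Of 31 splicing genes 4 were higher (12.9% against 8.88% of all genes) and 5 lower (16.1% against 21.1%), with a median of 0.04. The splicing coactivator SRRM2 fell (175, 172 and 139.8 untreated and 6.24, 8.24 and 11.3 at 8 h; -4.12 ± 0.40, adjusted p = 6.01e-09). SRRM1 (103.9, 113 and 96.8 untreated and 13.03, 20.1 and 24.4 at 8 h; -2.43 ± 0.31, adjusted p = 6.49e-07) and the speckle protein SON (103.1, 108 and 99.8 untreated and 21.96, 22.3 and 19.6 at 8 h; -2.23 ± 0.24, adjusted p = 3.20e-08) fell too. The SR protein SRSF7 rose (33.4, 30.4 and 32.7 untreated and 103.6, 88.2 and 62.5 at 8 h; 1.34 ± 0.34, adjusted p = 0.00325). SRSF7 did not pass without rescaling (adjusted p = 0.153).

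Genes that fell had longer transcripts than genes that rose, with medians of 4111 and 2235.5 bases for the longest transcript of each gene. Among protein-coding genes with a longest transcript under 1 kb, 22.6% were higher and 13.6% lower; over 8 kb, 2.56% were higher and 37.8% lower. The share higher dropped at every step between these ends, and the median change went from 0.35 to -0.51. The Spearman correlation of change with transcript length was -0.22 across protein-coding genes and -0.09 with genomic span; genes of a library share its make-up and are not independent. Genes with over 20 exons gave 636 of 1929 lower and 41 higher, and single-exon genes other than histones 137 of 497 lower and 23 higher. Ribosomal protein genes had a median longest transcript of 1170 bases and chromatin regulators of 8965, so group and length went together here.

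**Figure D4:**
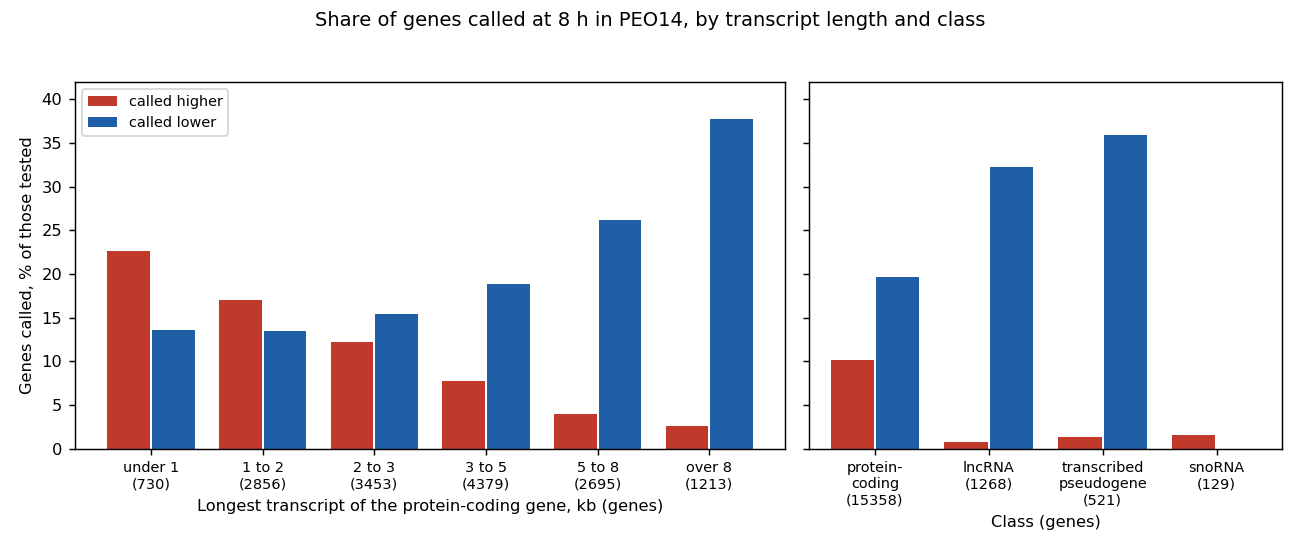
Percentage of tested genes called higher (red) and lower (blue) at 8 h by the longest transcript of protein-coding genes, in kb, and by gene class; numbers of genes are in brackets. The share lower is 13.6% under 1 kb and 37.8% over 8 kb, and reaches 32.3% in long noncoding RNAs.

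The deepest protein-coding falls were in genes of varied function. CDHR5, a protocadherin of intestinal and renal brush borders, had the largest protein-coding fall, from 122, 105.03 and 156 to 0.487, 1.34 and 0.748 (-6.12 ± 0.37, adjusted p = 6.22e-13). LRRC4, a neuronal adhesion protein, fell from 42.6, 43.8 and 61.5 to 0.130, 0.356 and 0.347. LRRTM2, another, fell from 34.6, 44.5 and 75.3 to 0.487, 0.701 and 1.14. GPRC5D, an orphan receptor, fell from 45.6, 62.4 and 123 to 0, 3.45 and 1.35. The G protein-coupled estrogen receptor GPER1 was likewise near 0 after treatment (40.4, 32.2 and 56.0 untreated and 0.660, 0.939 and 0.493 at 8 h; -4.66 ± 0.44, adjusted p = 4.19e-09). So were ACSM1, a medium-chain acyl-CoA synthetase (36.0, 40.9 and 60.3 untreated and 0.465, 2.64 and 0 at 8 h), and KCTD4 (31.1, 33.6 and 65.1 untreated and 0.454, 0.960 and 0.630 at 8 h). SLFNL1 (84.5, 64.0 and 84.7 untreated and 0.671, 1.70 and 1.33 at 8 h) and TNFAIP8L3 (37.6, 43.7 and 60.5 untreated and 1.27, 1.49 and 0 at 8 h) showed the same. CLDN24 fell as well, with 1 treated library higher than the others (81.5, 67.5 and 119 untreated and 1.28, 14.8 and 0 at 8 h). Of 55 olfactory receptor genes tested 12 were lower, a share of 21.8% that was near the 21.1% of all genes, and none higher. Without 8 h replicate 1 the number was 7. The list was led by OR13H1 (23.2, 26.6 and 50.4 untreated and 1.66, 3.92 and 0 at 8 h). These values move with the number of olfactory genes and of all genes listed per library given above, and the part of library composition in them was not tested.

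Fallen regulators and secreted factors included the atrophin corepressor ATN1 (168, 133 and 83.9 untreated and 2.66, 3.32 and 3.57 at 8 h; -4.90 ± 0.46, adjusted p = 3.21e-09). TNFRSF6B, a soluble decoy receptor for FAS ligand, was another (107, 61.1 and 70.5 untreated and 1.49, 1.83 and 0 at 8 h; -5.35 ± 0.65, adjusted p = 2.89e-07). IGF2, an imprinted growth factor, fell as well (1185, 1740.4 and 864 untreated and 147, 209.8 and 191 at 8 h; -2.74 ± 0.43, adjusted p = 1.71e-05). The zinc finger family, mostly KRAB repressors, had 99 of 501 lower and 10 higher, with the share lower close to that of all genes. Those higher were 5 without 8 h replicate 1 or untreated replicate 1 and 6 without 8 h replicate 2. ZNF671 (39.7, 40.4 and 69.1 untreated and 0.389, 0.281 and 0 at 8 h; -5.34 ± 0.48, adjusted p = 1.26e-09) and ZNF154 (65.0, 63.3 and 99.5 untreated and 1.02, 2.48 and 6.72 at 8 h) were among those that fell furthest. The epidermal differentiation factor ZNF750 (29.5, 23.8 and 38.5 untreated and 0.584, 0.626 and 0.821 at 8 h; -4.21 ± 0.47, adjusted p = 6.95e-08) and ZNF703 (27.8, 19.8 and 12.4 untreated and 1.09, 0.928 and 0 at 8 h) were others.

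Genes known to be induced by DNA damage did not all move one way. Of 28 p53 targets 4 rose (14.3% against 8.88% of all genes) and 3 fell (10.7% against 21.1%), the furthest POLH (-1.74). Without rescaling 1 rose and 5 fell. PMAIP1, the proapoptotic NOXA, rose from 0.797, 1.97 and 1.87 to 8.89, 12.6 and 7.58 (2.08 ± 0.41, adjusted p = 3.11e-04). GADD45A, a stress-induced growth arrest gene, rose from 10.3, 31.97 and 45.3 to 67.1, 70.2 and 80.2 (1.504 ± 0.33, adjusted p = 9.75e-04). CCNG1 (1.06) and SESN1 (1.05) also passed. CDKN1A, the cyclin-dependent kinase inhibitor p21, stayed low, at 6.04, 4.83 and 1.29 rescaled TPM untreated and at 3.40, 5.62 and 5.25 at 8 h (0.32 ± 0.63, adjusted p = 0.772), with overlapping groups. MDM2, a ubiquitin ligase, fell from 36.4, 39.0 and 40.7 to 22.4, 18.6 and 14.2 (-1.05 ± 0.30, adjusted p = 0.00709). The secreted stress factor GDF15 did not pass (0, 1.11 and 1.57 untreated and 0.833, 1.18 and 6.92 at 8 h; 0.85 ± 0.60, adjusted p = 0.313). Without rescaling PMAIP1 remained higher (adjusted p = 0.00556) and GADD45A did not pass (adjusted p = 0.137).

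Few DNA repair genes passed. Excision, translesion and mismatch repair genes gave 4 of 34 higher and 4 lower, 11.8% each against 8.88% and 21.1% of all genes. Without rescaling none of them was higher and 6 were lower. Of 34 homologous recombination and Fanconi genes 3 rose (8.82% against 8.88% of all genes) and 4 fell (11.8% against 21.1%), and without 8 h replicate 3 the risers were 5. FANCC (28.0, 32.9 and 52.7 untreated and 3.30, 2.72 and 2.59 at 8 h; -3.28 ± 0.32, adjusted p = 7.30e-09) and FANCA (27.3, 28.0 and 33.0 untreated and 4.88, 9.85 and 13.9 at 8 h; -1.63 ± 0.29, adjusted p = 9.67e-05), both of the Fanconi core complex, were lower. The recombination protein XRCC3 (113, 82.0 and 95.5 untreated and 7.64, 16.1 and 13.1 at 8 h; -2.92 ± 0.29, adjusted p = 7.30e-09) and the nuclease scaffold SLX4 (-1.21) fell as well. UBE2T, the E2 enzyme of that pathway (34.8, 52.9 and 56.0 untreated and 193, 217 and 92.8 at 8 h; 1.72 ± 0.53, adjusted p = 0.0129), FANCF (1.58) and the checkpoint kinase CHEK1 (1.11) were higher. BRCA1 (13.5, 12.7 and 17.7 untreated and 11.5, 13.4 and 11.7 at 8 h; -0.24 ± 0.31, adjusted p = 0.631) and BRCA2 (5.99, 4.80 and 5.597 untreated and 5.52, 5.62 and 4.58 at 8 h; -0.05 ± 0.39, adjusted p = 0.972) overlapped between groups. In translesion synthesis POLH, polymerase eta, fell (16.1, 13.04 and 19.0 untreated and 4.11, 3.39 and 4.74 at 8 h; -1.74 ± 0.26, adjusted p = 9.37e-06). REV3L, the catalytic subunit of polymerase zeta, fell too (15.4, 12.1 and 15.8 untreated and 4.46, 4.06 and 5.40 at 8 h; -1.45 ± 0.27, adjusted p = 1.43e-04). Its accessory subunit MAD2L2 rose (7.79, 7.16 and 13.3 untreated and 22.4, 24.7 and 28.6 at 8 h; 1.37 ± 0.33, adjusted p = 0.00200). RPA2, which binds single-stranded DNA, rose as well (9.45, 8.53 and 13.1 untreated and 45.1, 29.5 and 20.8 at 8 h; 1.48 ± 0.36, adjusted p = 0.00228). The excision nuclease subunit ERCC1 did not pass, with 399.6, 406 and 521 untreated and 254, 377 and 746 at 8 h and 8 h replicate 3 highest (-0.08 ± 0.39, adjusted p = 0.933).

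Of 19 platinum and drug transport genes 1 rose (5.26% against 8.88% of all genes) and 2 fell (10.5% against 21.1%). The copper and platinum importer SLC31A1 stood at 5.604, 6.44 and 4.57 rescaled TPM untreated and at 9.86, 8.09 and 11.1 at 8 h (0.71 ± 0.30, adjusted p = 0.0756), without overlap but short of the threshold. The copper exporters ATP7A (1.42, 2.06 and 1.67 untreated and 3.19, 2.11 and 1.94 at 8 h; 0.32 ± 0.28, adjusted p = 0.430) and ATP7B (3.93, 3.88 and 4.91 untreated and 2.60, 2.79 and 4.74 at 8 h; -0.29 ± 0.36, adjusted p = 0.616) overlapped between groups. ATOX1, the chaperone that hands copper to them, rose (38.8, 25.5 and 22.8 untreated and 76.5, 70.9 and 59.3 at 8 h; 1.25 ± 0.35, adjusted p = 0.00689). The multidrug exporters ABCC1 (28.2, 34.3 and 28.7 untreated and 7.19, 10.3 and 11.5 at 8 h; -1.57 ± 0.26, adjusted p = 3.67e-05) and ABCC5 (16.3, 14.7 and 14.5 untreated and 6.21, 9.67 and 6.10 at 8 h; -0.98 ± 0.32, adjusted p = 0.0203) fell. Of 9 metallothionein genes and regulators tested, MT2A rose (19.1, 35.3 and 8.43 untreated and 61.6, 55.9 and 76.6 at 8 h; 1.78 ± 0.48, adjusted p = 0.00502) and their activator MTF1 fell (9.15, 8.72 and 12.3 untreated and 2.24, 2.36 and 1.29 at 8 h; -1.90 ± 0.25, adjusted p = 1.22e-06).

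Protein folding genes rose on this scale. Of 24 heat shock genes 11 were higher (45.8% against 8.88% of all genes) and none lower. But without rescaling none of the 24 passed, and 0 passed with all 54 libraries. The constitutive chaperone HSPA8 stood at 591, 757 and 689 rescaled TPM untreated and at 2062, 1585 and 1490.3 at 8 h (1.33 ± 0.27, adjusted p = 3.72e-04). DNAJA1, its cochaperone, stood at 148, 207 and 198 rescaled TPM untreated and at 497, 503 and 453 at 8 h (1.40 ± 0.34, adjusted p = 0.00218). HSPE1, the mitochondrial chaperonin lid, stood at 97.0, 112 and 112 rescaled TPM untreated and at 337, 374 and 182 at 8 h (1.40 ± 0.40, adjusted p = 0.00789). HSP90AB1 rose (436, 505 and 607 untreated and 967, 879 and 932 at 8 h; 0.85 ± 0.24, adjusted p = 0.00709). Its stress-inducible relative HSP90AA1 did not pass (676, 780.0 and 815 untreated and 686, 688 and 747 at 8 h; -0.10 ± 0.24, adjusted p = 0.836).

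Heat shock factor binds inverted repeats of a short unit, searched here as TTCNNGAANNTTC and, on the other strand, GAANNTTCNNGAA in the 250 bases before a start. The motif occurred in the promoters of 6 of 22 heat shock genes and of 60 of all 12420 protein-coding genes, or 0.483%. The 3 windows below come from genes on either side of the threshold, with the motif in capitals and 25 bases or fewer around it.
HSPA8: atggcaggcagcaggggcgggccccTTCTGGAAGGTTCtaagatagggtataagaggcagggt
HSP90AB1: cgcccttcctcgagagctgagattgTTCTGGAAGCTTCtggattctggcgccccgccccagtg
HSP90AA1: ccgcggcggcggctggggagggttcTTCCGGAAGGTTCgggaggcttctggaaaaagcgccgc
They lie 55 bases before the start of HSPA8 (chr11:123062154-123062216, minus strand), 112 before that of HSP90AB1 (chr6:44247806-44247868, plus strand) and 88 before that of HSP90AA1 (chr14:102087095-102087157, minus strand). A match is a description of letters and not a bound site, and genes with it lay on both sides of the threshold.

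In the unfolded protein response 9 of 24 genes rose (37.5% against 8.88% of all genes) and 3 fell (12.5% against 21.1%). Without rescaling 1 rose and 3 fell. The endoplasmic reticulum cochaperone DNAJB9 rose (4.19, 1.98 and 3.17 untreated and 18.0, 15.03 and 12.4 at 8 h; 1.997 ± 0.51, adjusted p = 0.00319). DERL2 of the degradation channel (7.19, 7.13 and 8.46 untreated and 24.9, 24.6 and 13.6 at 8 h; 1.32 ± 0.47, adjusted p = 0.0346) and the lectin chaperone CALR (623, 648 and 994 untreated and 1532, 1489 and 2187 at 8 h; 1.21 ± 0.28, adjusted p = 0.00129) rose. HSPA5, the chaperone BiP, fell from 116, 97.2 and 109.7 to 43.0, 33.2 and 54.5 (-1.31 ± 0.25, adjusted p = 2.14e-04), with the ligase SYVN1 (17.1, 11.05 and 9.01 untreated and 3.22, 2.84 and 0.858 at 8 h; -2.06 ± 0.40, adjusted p = 2.38e-04) and the sensor ERN1 (-1.39). The integrated stress response gave 5 of 26 higher (19.2% against 8.88% of all genes) and 3 lower (11.5% against 21.1%). There was 1 lower without 8 h replicate 1. The transcription factor ATF4 rose (243, 189.6 and 287 untreated and 464, 582 and 672 at 8 h; 1.26 ± 0.22, adjusted p = 7.24e-05). Asparagine synthetase ASNS (22.8, 22.7 and 21.99 untreated and 123, 64.2 and 51.3 at 8 h; 1.68 ± 0.41, adjusted p = 0.00260) and the folate enzyme MTHFD2 (29.9, 29.6 and 46.6 untreated and 147, 99.9 and 119.5 at 8 h; 1.78 ± 0.33, adjusted p = 1.51e-04) rose too. ATF5, a relative of ATF4, fell (37.4, 38.2 and 48.8 untreated and 13.7, 14.6 and 21.5 at 8 h; -1.29 ± 0.28, adjusted p = 8.48e-04). Only MTHFD2 of these 3 risers also passed without rescaling (adjusted p = 0.0342).

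Of 28 NRF2 targets 7 rose (25.0% against 8.88% of all genes) and 1 fell (3.57% against 21.1%). None rose without rescaling, where the median turned from 0.49 to -0.03. Thioredoxin reductase TXNRD1 (27.4, 20.2 and 31.2 untreated and 112, 74.9 and 81.7 at 8 h; 1.73 ± 0.33, adjusted p = 1.82e-04) and glutathione transferases GSTM3 (14.5, 13.8 and 14.5 untreated and 51.7, 37.6 and 30.1 at 8 h; 1.39 ± 0.33, adjusted p = 0.00202) and GSTP1 (507, 359.7 and 419 untreated and 989.6, 861 and 990.4 at 8 h; 1.15 ± 0.19, adjusted p = 3.88e-05) were higher. Glutathione peroxidase GPX2 fell from 33.6, 20.99 and 44.7 to 0.768, 0 and 0 (-4.75 ± 0.61, adjusted p = 7.70e-07), below 1 in every treated library.

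Of 38 immediate early genes 7 were lower (18.4% against 21.1% of all genes) and 5 higher (13.2% against 8.88%). Those lower were 3 without 8 h replicate 1 and 4 without 8 h replicate 2 or untreated replicate 1, and those higher 2 without untreated replicate 3 and 3 without 8 h replicate 3. EGR1, a serum-induced transcription factor, stood at 50.4, 26.6 and 24.8 rescaled TPM untreated and at 1.19, 3.39 and 5.41 at 8 h (-3.07 ± 0.63, adjusted p = 4.46e-04). The mRNA-destabilising proteins ZFP36L2 (31.8, 33.2 and 26.2 untreated and 7.05, 5.36 and 7.74 at 8 h; -2.03 ± 0.46, adjusted p = 0.00115) and ZFP36L1 (27.3, 26.1 and 14.4 untreated and 6.005, 8.32 and 4.96 at 8 h; -1.64 ± 0.42, adjusted p = 0.00340) fell with it. The phosphatase DUSP5 rose (3.30, 5.47 and 1.41 untreated and 15.1, 8.998 and 8.33 at 8 h; 1.49 ± 0.46, adjusted p = 0.0146). Of 24 YAP and TGF-beta targets 5 rose and 5 fell, 20.8% each against 8.88% higher and 21.1% lower of all genes. Without untreated replicate 1 they were 1 and 3, and the risers were 2 without 8 h replicate 1 and 3 without untreated replicate 3. ANKRD1 (364, 397 and 445 untreated and 1145, 958 and 1043 at 8 h; 1.38 ± 0.49, adjusted p = 0.0320) and endothelin EDN1 (49.4, 47.9 and 43.4 untreated and 184, 106.2 and 125 at 8 h; 1.504 ± 0.44, adjusted p = 0.00948) were higher. ARHGEF17 (66.0, 54.8 and 46.9 untreated and 6.44, 14.96 and 15.5 at 8 h) and PTPN14, a negative regulator of YAP (32.4, 35.9 and 31.0 untreated and 11.5, 8.78 and 11.3 at 8 h), were lower.

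Inflammatory and antiviral genes moved both ways. The chemokine CXCL8 was near 0 untreated (0.454, 0 and 0) and stood at 5.38, 6.42 and 7.10 at 8 h (2.68 ± 0.42, adjusted p = 1.49e-05). NFKBIA, the inhibitor of NF-kB, rose (48.5, 60.3 and 51.7 untreated and 82.1, 128 and 115 at 8 h; 0.99 ± 0.18, adjusted p = 8.26e-05). In the list of NF-kB and cytokine genes REL (4.48, 5.37 and 6.602 untreated and 0.714, 2.10 and 1.82 at 8 h; -1.38 ± 0.32, adjusted p = 0.00163) and BCL3 (4.56, 7.55 and 5.36 untreated and 0.260, 1.46 and 0.721 at 8 h; -1.94 ± 0.56, adjusted p = 0.00881) fell. Those were the 4 of 32 that passed, 6.25% in each direction against 8.88% higher and 21.1% lower of all genes. Of 41 interferon-stimulated genes 4 rose and 4 fell, 9.76% each against 8.88% higher and 21.1% lower of all genes. The risers were 1 without 8 h replicate 1 and 2 without untreated replicate 1 or 2. IRF7, the factor that drives type I interferon genes, had one of the largest falls of all, from 128, 80.6 and 127 to 1.16, 0.658 and 3.54 (-5.45 ± 0.46, adjusted p = 4.95e-10), and it was listed at 0 in the 24 h library. The antiviral enzyme OAS3 fell too (4.90, 6.83 and 3.27 untreated and 1.45, 1.67 and 0.192 at 8 h; -1.55 ± 0.32, adjusted p = 3.72e-04). The ISG15 conjugating enzyme UBE2L6 rose (1.93, 1.04 and 1.14 untreated and 9.02, 5.57 and 9.83 at 8 h; 1.93 ± 0.32, adjusted p = 3.28e-05). Antigen presentation gave 5 of 19 higher (26.3% against 8.88% of all genes) and 2 lower (10.5% against 21.1%). Those higher were 2 without 8 h replicate 1 and 3 without 8 h replicate 2 or untreated replicate 1. B2M, the light chain of MHC class I, was higher (48.3, 56.4 and 57.7 untreated and 270.0, 191 and 68.7 at 8 h; 1.48 ± 0.48, adjusted p = 0.0199). The proteasome activator PSME1 was another (60.2, 35.3 and 56.6 untreated and 137, 123 and 153 at 8 h; 1.45 ± 0.34, adjusted p = 0.00168), and TAPBPL was lowest (-2.30).

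The study's title names CPT1A, the carnitine transferase that admits fatty acids into mitochondria. Its level stood at 60.0, 44.7 and 45.9 rescaled TPM untreated and at 33.6, 40.0 and 40.8 at 8 h (-0.38 ± 0.33, adjusted p = 0.429), lower in all 3 treated libraries without overlap and short of the threshold. Of 42 fatty acid oxidation genes 9 rose (21.4% against 8.88% of all genes) and 5 fell (11.9% against 21.1%). Without rescaling 1 rose and 10 fell, without 8 h replicate 1 the numbers were 3 and 3, and without untreated replicate 3 those lower were 3. The risers were enzymes, such as the electron transfer flavoprotein ETFA (13.9, 21.3 and 27.3 untreated and 75.6, 72.5 and 60.5 at 8 h; 1.73 ± 0.36, adjusted p = 5.50e-04). Others were ECHS1 (55.0, 58.3 and 42.2 untreated and 126, 128 and 101.1 at 8 h; 1.18 ± 0.25, adjusted p = 6.83e-04) and the thiolase ACAT1 (5.39, 9.52 and 12.7 untreated and 23.6, 19.6 and 28.0 at 8 h; 1.33 ± 0.45, adjusted p = 0.0253). The 5 that fell were CPT1B (-2.10) and the regulators PPARD (-1.23), PPARGC1B (-1.06), PPARA (-0.88) and PPARGC1A (-0.76).

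In lipid synthesis the main enzyme and regulators fell. FASN, fatty acid synthase, stood at 221, 179.9 and 138 rescaled TPM untreated and at 32.5, 42.3 and 56.9 at 8 h (-2.02 ± 0.42, adjusted p = 4.32e-04). Its regulator SREBF1 stood at 24.1, 20.04 and 18.8 rescaled TPM untreated and at 6.02, 8.01 and 7.08 at 8 h (-1.45 ± 0.41, adjusted p = 0.00744). DGAT1, the last step of triglyceride synthesis, stood at 64.4, 56.6 and 76.8 rescaled TPM untreated and at 18.2, 21.4 and 33.8 at 8 h (-1.43 ± 0.34, adjusted p = 0.00190). In all, 8 of 23 fell (34.8% against 21.1% of all genes) and 2 rose (8.70% against 8.88%). Those lower were 4 without 8 h replicate 1 and 5 without untreated replicate 2 or 3. SREBF2, the regulator of cholesterol synthesis, fell (24.2, 21.7 and 20.7 untreated and 4.73, 4.35 and 5.87 at 8 h; -1.96 ± 0.29, adjusted p = 7.05e-06), as did lanosterol synthase LSS (57.6, 45.7 and 36.6 untreated and 20.1, 15.1 and 28.1 at 8 h; -1.13 ± 0.31, adjusted p = 0.00633). FDPS rose (68.9, 65.4 and 88.6 untreated and 182, 151 and 129.9 at 8 h; 1.04 ± 0.31, adjusted p = 0.0111). In all, 3 of 27 cholesterol genes were higher and 3 lower, 11.1% each against 8.88% and 21.1% of all genes. There was 1 higher without 8 h replicate 1 and 1 lower without 8 h replicate 2. Glycolysis gave 11 of 27 higher (40.7% against 8.88% of all genes) and 1 lower (3.70% against 21.1%). TPI1 stood at 299, 301 and 345 rescaled TPM untreated and at 935, 843 and 801 at 8 h (1.45 ± 0.20, adjusted p = 1.95e-06). PGK1 was at 138, 144 and 139 rescaled TPM untreated and at 495, 362 and 279.7 at 8 h (1.39 ± 0.27, adjusted p = 2.43e-04). The glucose uptake inhibitor TXNIP was at 11.8, 13.97 and 12.02 rescaled TPM untreated and at 51.1, 41.9 and 32.8 at 8 h (1.64 ± 0.28, adjusted p = 4.64e-05). Without rescaling none of the 27 was higher and 1 was lower, and without 8 h replicate 1 the number higher was 7. Among 22 hypoxia genes 2 rose (9.09% against 8.88% of all genes) and 4 fell (18.2% against 21.1%). Those that fell included ANGPTL4 (12.99, 7.16 and 16.3 untreated and 2.51, 1.14 and 3.58 at 8 h) and HIF3A (7.48, 5.86 and 3.78 untreated and 1.92, 1.17 and 0.766 at 8 h).

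Simple-epithelial keratins rose. KRT18 stood at 2787, 2373 and 2449.5 rescaled TPM untreated and at 5609, 4493 and 6156 at 8 h (1.09 ± 0.24, adjusted p = 9.06e-04). Its partner KRT8 was at 1428, 1212 and 1269 rescaled TPM untreated and at 2653, 2144 and 3171 at 8 h (1.01 ± 0.23, adjusted p = 0.00148). KRT7 was at 696, 715 and 822 rescaled TPM untreated and at 1681, 1594 and 2225 at 8 h (1.29 ± 0.30, adjusted p = 0.00161). KRT17, a keratin of stressed and basal epithelia, rose from 1.99, 4.11 and 2.34 to 14.8, 18.4 and 33.5 (2.56 ± 0.37, adjusted p = 3.81e-06). In the epithelial list 9 of 31 rose (29.03% against 8.88% of all genes) and 3 fell (9.68% against 21.1%). Among those that rose were the claudin CLDN7 (26.8, 21.4 and 20.5 untreated and 64.7, 60.2 and 62.3 at 8 h; 1.42 ± 0.27, adjusted p = 1.48e-04) and the adhesion molecule EPCAM (1.002). The 3 that fell were ZNF750, the mucin MUC1 (14.7, 26.9 and 15.1 untreated and 0.628, 0.885 and 0 at 8 h; -3.72 ± 0.51, adjusted p = 1.94e-06) and CLDN3 (62.6, 50.7 and 52.99 untreated and 3.88, 6.05 and 4.32 at 8 h; -3.31 ± 0.51, adjusted p = 1.19e-05). Without rescaling none of the 31 was called higher and 4 were lower, while KRT17, which is not in that list, still passed (adjusted p = 2.99e-04).

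Of 25 mesenchymal genes the collagen COL1A1 (62.3, 41.8 and 33.7 untreated and 6.98, 7.92 and 18.6 at 8 h; -2.02 ± 0.49, adjusted p = 0.00217) and its relative COL5A1 (135, 84.5 and 79.4 untreated and 17.0, 21.3 and 47.8 at 8 h; -1.86 ± 0.48, adjusted p = 0.00397) fell. TPM2, a tropomyosin, fell too (95.3, 57.5 and 73.4 untreated and 13.7, 17.8 and 26.2 at 8 h; -1.94 ± 0.38, adjusted p = 2.73e-04). TAGLN rose (24.9, 39.2 and 39.4 untreated and 80.6, 70.9 and 52.6 at 8 h; 0.97 ± 0.36, adjusted p = 0.0418). Mesenchymal genes thus had 1 of 25 higher (4% against 8.88% of all genes) and 3 lower (12% against 21.1%). PAX8, the Müllerian lineage factor used to diagnose serous carcinoma, fell from 163, 207 and 170.3 to 45.5, 57.2 and 56.8 (-1.74 ± 0.25, adjusted p = 3.79e-06), as did MUC16, which encodes CA125 (-2.31). The protease inhibitor SLPI rose (183, 336 and 318 untreated and 860.5, 1046 and 649 at 8 h; 1.63 ± 0.47, adjusted p = 0.00862). In all, 2 of 24 Müllerian genes were higher (8.33% against 8.88% of all genes) and 4 lower (16.7% against 21.1%). In the BCL2 family of 19 only PMAIP1 rose and only BCL2L14 fell (12.5, 18.7 and 28.0 untreated and 0.509, 0 and 0 at 8 h; -4.11 ± 0.51, adjusted p = 3.88e-07). That was 5.26% each way, against 8.88% higher and 21.1% lower of all genes.

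The PEO14 change was next set against that of the 3 other lines with at least 2 qualifying libraries in both groups, PEA2, PEO1 and PEO4, each with 2 libraries at 8 h and 3 untreated. No control is shared. By the labels PEO1, like PEO14, is platinum-sensitive (S), and PEA2 and PEO4 are resistant (R). The libraries compared were at passages 23 to 27 in PEA2, 9 to 13 in PEO1 and 6 to 10 in PEO4. Line, resistance and passage cannot be told apart here. Of the 1599 genes higher in PEO14, 77.2% were also called higher in PEO1, 79.7% in PEO4 and 25.9% in PEA2, where fewer genes were called. Those shared genes were 39.3%, 32.8% and 65.4% of the lists of the 3 lines. Of the 3805 lower, the shares were 60.9%, 67.0% and 38.4%, and in all 3 lines 377 higher and 1093 lower genes were called the same way as in PEO14.

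A direct test of the PEO14 change minus the mean change of the 3 lines called 418 genes (2.32%) higher and 676 (3.75%) lower, 1094 (6.07%) in all. Of the 676, 381 were also called lower in PEO14 and 187 were under 1 rescaled TPM in the untreated cultures of all 3 other lines. No cytosolic ribosomal protein gene differed by this test, but 14 of the 81 were lower in PEO14 without PEO1 8 h replicate 1 and 3 without PEO4 8 h replicate 1. Without rescaling 1 of the 81 was higher and none lower, with a median difference of 0.05, against -0.62 with rescaling. Of 77 mitochondrial ribosomal protein genes 9 had a lower change in PEO14 and none a higher one. Of 71 oxidative phosphorylation genes 6 had a lower and 1 a higher change. Neither list had a member called lower without rescaling, with all 54 libraries, with only the compared groups or without PEO14 8 h replicate 3. Without PEO1 8 h replicate 1 there were 18 and 24 lower. With rescaling the cytosolic list had median changes of 0.99 in PEA2, 2.63 in PEO1 and 3.14 in PEO4 against 1.54 in PEO14. Chromatin regulators had medians of -1.03, -2.19 and -2.44 against -1.30.

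Of 51 mitotic genes 19 had a change in PEO14 below the mean of the 3 lines and none above it, against 3.75% and 2.32% of all genes. That mean rested on PEO1 and PEO4, in which 24 and 32 of the 51 were called higher at 8 h. In PEA2 3 were called higher (median change 0.19) and in PEO14 2 (median -0.03). The RNAs RMRP and RPPH1 took 41.2% and 38.2% of TPM in PEO1 8 h replicate 2 and PEO4 8 h replicate 2, whose scaling factors were 0.256 and 0.259, against 8.52% to 27.6% in the other 8 h libraries compared. Without these libraries in turn the number of mitotic differences was 12 and 13, and the part of library composition in it was not tested. Cyclin B1, CCNB1, stood at 70.0, 86.6 and 73.1 rescaled TPM untreated and at 154, 106.1 and 81.4 at 8 h, with overlapping groups, while its change was 0.72, 2.88 and 3.77 in PEA2, PEO1 and PEO4 (difference -1.93 ± 0.38, adjusted p = 0.00204). The spindle checkpoint gene MAD2L1 (10.4, 18.2 and 12.9 untreated and 55.5, 47.3 and 15.2 at 8 h) changed by 1.60, 4.70 and 5.84 there (difference -2.76 ± 0.70, adjusted p = 0.0183). Survivin, BIRC5 (26.8, 34.5 and 23.6 untreated and 47.0, 38.6 and 27.4 at 8 h), changed by 0.64, 2.30 and 2.64 (difference -1.48 ± 0.32, adjusted p = 0.00465). Neither separated the PEO14 groups. MKI67 fell in all 4 lines, with changes of -2.42, -3.87 and -4.45 in the other 3, and the difference did not pass. Without rescaling 0 of the 51 differed, with all 54 libraries 0 and with only the compared groups 4; without PEO14 8 h replicate 3 the number was 6 and without untreated replicate 2 it was 7. It was 11 without PEO14 8 h replicate 2, untreated replicate 3 or PEA2 8 h replicate 3.

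**Figure D5:**
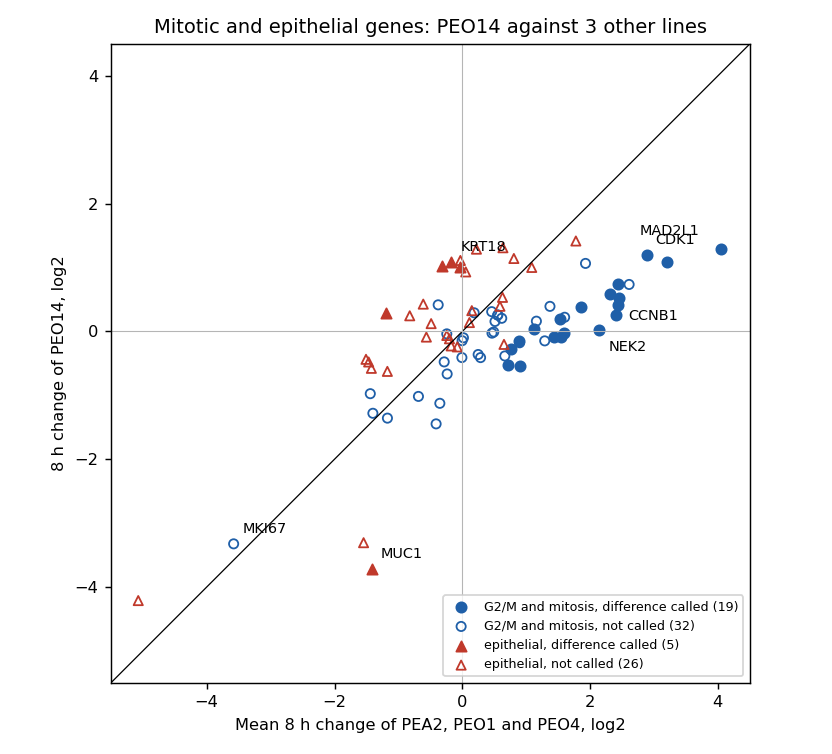
The 8 h change of PEO14 against the mean change of PEA2, PEO1 and PEO4 for mitotic genes (circles) and epithelial genes (triangles), both axes on the log2(rescaled TPM + 1) scale; filled symbols mark a called difference and the line marks equal change. The 19 filled circles lie below the line, and 4 of the 5 filled triangles lie above it.

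Of 31 epithelial genes 4 had a higher change in PEO14, namely KRT18, KRT8, KRT19 and the epithelial transcription factor ELF3, and 1, MUC1, a lower one. Over all genes 2.32% had a higher change and 3.75% a lower one. The difference was 1.26 ± 0.29, adjusted p = 0.00798 for KRT18, 1.05 ± 0.28, adjusted p = 0.0251 for KRT8, 1.35 ± 0.38, adjusted p = 0.0333 for KRT19 (421, 324 and 423 untreated and 702, 722 and 974 at 8 h) and 1.48 ± 0.40, adjusted p = 0.0258 for ELF3. KRT17, outside that list, differed by 1.77 ± 0.44, adjusted p = 0.0145. Changes in the other lines were 0.19, -0.38 and -0.33 for KRT18 in the same order. Without rescaling 7 of 31 were higher and 1 lower. With all 54 libraries, and with only the compared groups, none of the 31 differed. Those higher were 1 without PEO14 8 h replicate 3, untreated replicate 2 or untreated replicate 3, 2 without PEO14 8 h replicate 2, untreated replicate 1, PEA2 8 h replicate 3 or PEO4 8 h replicate 2, and 8 without PEO4 untreated replicate 3. The laminin chain LAMB3 (18.4, 24.7 and 20.4 untreated and 36.3, 33.3 and 53.6 at 8 h; difference 1.57 ± 0.35, adjusted p = 0.00599), chosen after its values were seen, showed it too. SPP1 (difference 2.17 ± 0.32, adjusted p = 6.01e-05) and LGALS14 (2.55 ± 0.43, adjusted p = 3.61e-04) rose in PEO14 and were listed at 0 in the untreated cultures of the other lines, with changes of 0.00, 0.43 and 0.00 for SPP1.

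Lower differences came from varied genes. THUMPD1, which assists tRNA acetylation, fell from 119.5, 150.1 and 253 to 23.3, 19.8 and 27.8 (-2.77 ± 0.28, adjusted p = 1.18e-08) and changed by 0.60, 0.61 and 0.44 in the other lines (difference -3.32 ± 0.33, adjusted p = 5.52e-08). The urothelial tetraspanin UPK1B (6.35, 11.7 and 13.6 untreated and 0.227, 0 and 0 at 8 h; difference -4.21 ± 0.53, adjusted p = 4.55e-06), the cytokine IL18 (2.84, 1.17 and 4.18 untreated and 0.444, 0 and 0 at 8 h; difference -3.29 ± 0.50, adjusted p = 7.78e-05) and MEG3 (difference -4.00 ± 0.35, adjusted p = 3.85e-09) were, like THUMPD1, picked after their values were seen. MEG3 and BASP1P1 were under 1 rescaled TPM in the untreated cultures of the other lines, where they could hardly fall. BASP1P1, a pseudogene (107, 94.8 and 159 untreated and 0.866, 2.46 and 4.83 at 8 h; difference -4.85 ± 0.52, adjusted p = 2.09e-07), changed by 0.00, -0.34 and -0.53 elsewhere. MDM2 fell here and changed by 0.43, 0.77 and 0.31 elsewhere (difference -1.56 ± 0.35, adjusted p = 0.00756). The largest differences belonged to short RNAs with widely spread values, SNORA38B (95.5, 47.9 and 104.8 untreated and 17.6, 0 and 0 at 8 h), SNORA78 (114, 56.7 and 41.3 untreated and 62.3, 0 and 0 at 8 h), SNORA71E (55.9, 42.4 and 0 untreated and 0, 0 and 0 at 8 h) and SCARNA22 (413, 61.1 and 178 untreated and 0, 87.5 and 0 at 8 h).

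Of the 418 higher differences, 321 were in genes not called in PEO14 itself. CRMP1, a cytoskeletal protein of neurons, stood at 70.8, 69.4 and 70.4 rescaled TPM untreated and at 42.7, 43.7 and 60.8 at 8 h and changed by -3.05, -3.57 and -4.51 elsewhere (difference 3.18 ± 0.53, adjusted p = 3.14e-04). PIN4P1 (difference 3.39 ± 0.55, adjusted p = 2.00e-04), FAM212A (3.08 ± 0.87, adjusted p = 0.0322) were among them. So were the antisense genes JARID2-AS1 and KCNQ5-AS1, which were listed at 0 in all 6 PEO14 libraries and could not fall there, so their difference is no measure of a response of PEO14. MTRNR2L2, nearly identical to mitochondrial ribosomal RNA and so uncertain, rose from 2.40, 58.0 and 14.5 to 124, 174 and 135 (3.30 ± 1.01, adjusted p = 0.0128). The count of differences was sensitive to single libraries: without PEO14 8 h replicate 3 it was 426 and without PEO4 untreated replicate 3 it was 2010.

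At 24 h only replicate 1 listed at least 12000 genes, 14718, against 6058 and 8748 in the others, so its values are given with no test. Its scaling factor was 0.568, against 0.924 to 1.10 at 8 h, which raises its rescaled values relative to theirs. RMRP and RPPH1 took 29.5% of its TPM, against 16.2% to 22.1% at 8 h. Its ranks against the 8 h values below are on the rescaled scale, and some depend on it. Without rescaling, EEF1A1, ATP5E and PSMC2 lay within the 8 h range, and HIST1H4H and SPP1 below it. RPS3A stood at 7457 rescaled TPM, EEF1A1 at 8002, ATP5E at 1485, PSMC2 at 260.3 and PCNA at 299, all above the 3 values at 8 h. HIST1H4H (162) and SPP1 (175) lay within the 8 h range, and KRT18 (3075) and KRT17 (2.32) below it. NEAT1 (2.82), MALAT1 (151), KMT2D (1.72), MKI67 (16.9) and FASN (17.1) were still below every untreated value. PMAIP1 was at 93.7 and CDKN1A at 14.96, each above its 8 h values, and CCNB1 at 288.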

How the data were processed

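Values are TPM per gene for 54 libraries, 25435 genes, deposited by the authors in 1 table. Per the file's name RSEM made them, and per the submitters' processing notes bcl2fastq 2.18 and build hg19 were used; no source used here names the aligner, the annotation or the strand setting. The labels give a stranded total RNA kit and 80 µM carboplatin, the series text mM. Depth is unknown, since TPM keeps none.

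Values were rescaled by median ratios, and log2(rescaled TPM + 1) was fitted with limma 3.58.1 in R 4.3.3 (group means, mean-variance trend, Benjamini-Hochberg adjustment) over the 42 libraries that listed at least 12000 genes and the 18013 genes whose TPM reached 1 in 3 or more of them, with 25 residual degrees of freedom. The difference between lines was a contrast in the same model. With 3 libraries against 3, an exact permutation test cannot go below p = 0.1. The fit was tested on simulated data. Replicate numbers were not treated as pairs in the main model. Deviations of same-numbered libraries correlated at 0.08, 0.07 and 0.26 over 7814 genes, which does not settle whether they were paired.

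Genes named were the largest changes by class and abundance among called genes without overlap, some names set in advance, and the largest called members of each list. Members and lists were chosen with earlier results of these data known. Genes outside that rule, among them THUMPD1, UPK1B, IL18, MEG3, CRMP1, KRT19, ELF3, LAMB3, CCNB1, MAD2L1, BIRC5, HSP90AB1 and HSP90AA1, and list members beyond the largest, were chosen after their values were seen. Symbols matched RefSeq (GRCh38.p14) for 24120 genes, which gave classes, lengths and promoters; 28 symbols that look like dates were not named, and some genes that the rule names are not reported here. Alternatives were scaling, pseudocount, filter, libraries in the model, trend, replicate block and leaving out each library.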

Additional observations from a re-analysis of the deposited data

Results flagged for a closer look

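The PEO14 change at 8 h minus the mean change of PEA2, PEO1 and PEO4 passed limma's adjusted threshold for the named genes listed here, with the difference on the log2(rescaled TPM + 1) scale.

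In keratins and a laminin chain it was KRT17 1.77, KRT18 1.26, KRT8 1.05, KRT19 1.35 and LAMB3 1.57. The epithelial factor and mucin gave ELF3 1.48 and MUC1 -2.31.

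Other genes with a higher difference gave SPP1 2.17, LGALS14 2.55, TXNIP 1.12 and CRMP1 3.18, the last not called in PEO14 itself. Further higher differences were MTRNR2L2 4.36, PIN4P1 3.39 and FAM212A 3.08. JARID2-AS1 gave 3.53 and KCNQ5-AS1 3.37, but both were listed at 0 in all 6 PEO14 libraries and could not fall there, so these values are no measure of a response of PEO14.

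Among lower differences, genes of mitosis and DNA synthesis or repair gave CCNB1 -1.93, MAD2L1 -2.76, BIRC5 -1.48, TYMS -1.23 and UBE2T -2.12. The ubiquitin ligase MDM2 gave -1.56. Chaperones gave HSPE1 -1.60 and HSPA8 -1.18, and the mitochondrial ribosomal protein gene MRPL13 gave -2.68. Immune and cell death genes gave IRF7 -2.98, B2M -2.11, IL18 -3.29 and BCL2L14 -2.52. Of these, UBE2T, HSPE1, HSPA8 and B2M were called higher in PEO14 itself. CCNB1, MAD2L1, BIRC5 and MRPL13 did not pass without rescaling or with all 54 libraries.

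Genes that fell to near 0 in PEO14 gave CDHR5 -1.94, GPRC5D -3.25, TNFAIP8L3 -3.62, ACSM1 -4.01, UPK1B -4.21, OR13H1 -1.99 and HIST1H1T -4.23. Others gave THUMPD1 -3.32, TPM2 -1.76, HIF3A -1.31 and MXI1 -1.16. Imprinted noncoding RNAs gave MEG3 -4.00 and KCNQ1OT1 -1.70, and short or pseudogene RNAs SNORA38B -8.50, SNORA78 -8.02, SNORA71E -7.72, SCARNA22 -5.63 and BASP1P1 -4.85. MEG3, BASP1P1 and HIF3A were under 1 rescaled TPM in the untreated cultures of all 3 other lines, where they could hardly fall. The other lines had 2 libraries each at 8 h, and no explanation was tested.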

How the results depend on the processing

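The count of 5404 genes called at 8 h was within 1.5 times of itself under every alternative run except the model of all 54 libraries, which called 951 (14 higher, 937 lower). Its split was less stable: 280 genes were higher without rescaling and 2605 with only the compared groups. Leaving out 1 library gave 3774 to 5092 calls, 906 to 1579 higher and 2868 to 3513 lower, with the lowest counts, 906 and 2868, without 8 h replicate 1. With a replicate block the count was 5301 (1544 higher, 3757 lower). The replicate numbers gave no clear pairing. Treated replicate 1 correlated best with untreated replicate 2 (0.16), but treated replicate 3 correlated best with untreated replicate 3 (0.26). Same-numbered libraries correlated at 0.08, 0.07 and 0.26.

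The 1094 differences from the other lines varied more. Upper-quartile scaling gave 267 higher, a pseudocount of 0.1 518 (196 higher, 322 lower), all 54 libraries 124 (12 and 112), only the compared groups 259 (64 and 195) and a replicate block 1677 (631 and 1046). Leaving out 1 library gave 426 to 2010 (121 to 846 higher, 305 to 1164 lower). The total moved by over 1.5 times without PEO14 8 h replicate 2 (643) or 3 (426), PEO14 untreated replicate 1 (685), 2 (527) or 3 (486), PEA2 8 h replicate 3 (602), PEO1 8 h replicate 1 (1786) or 2 (606), PEO4 8 h replicate 2 (694) and PEO4 untreated replicate 3 (2010). The cause was not tested.

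Of the named genes 194 had a call; 147 of these did not pass with all 54 libraries, 50 without rescaling and 34 without 8 h replicate 1. Those whose sign turned were not called. Without rescaling CDKN1A was -0.14, ATP7A -0.084, CCNB1 -0.068, BIRC5 -0.20 and ELF3 -0.297. With all 54 libraries BRCA2 was 0.0454, ERCC1 0.0274 and HSP90AA1 0.0129, and with only the compared groups they were 0.0358, 0.0200 and 0.0054. Leaving out 1 library gave -0.18 to 0.63 for CDKN1A (lowest without untreated replicate 3), -0.13 to 0.032 for BRCA2 and -0.50 to 0.28 for ERCC1 (highest without 8 h replicate 1).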
